A study of Mus musculus with 2 samples.

Results

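Nefm-positive cells of untreated culture are the control cells in which at least 1 transcript of Nefm was counted. Nefm (ENSMUSG00000022054, protein coding, on the minus strand of chromosome 14 at 68082590 to 68124846 in mm10) encodes the medium chain of neurofilaments, the intermediate filaments of neurons. Of 4157 control cells, 609 were Nefm-positive (14.65%, exact binomial 95% interval 13.6 to 15.8%), against 2817 of 4537 FGF9-treated cells (62.1%). The cells were chosen on barcodes with at least 2000 genes, at most 20% mitochondrial transcripts and fewer than 40 transcripts of Vim plus S100a6, which leaves out cells of the feeder layer. Each Nefm-positive cell was set beside 1 control cell with no Nefm transcript and nearly the same total, 609 reference cells in all. A transcript is counted by its unique molecular identifier (UMI), and levels are given in CPM, the count divided by the total of the summed cells on the usual scale, with its exact interval in brackets.

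The study treated THY-1+ germ cells, a mouse culture enriched for spermatogonial stem cells (SSC), with FGF9 at 20 ng/ml for 48 h, and compared them by droplet single-cell sequencing with control cells that received no FGF9. Both cultures had been kept on STO feeders, a mouse fibroblast line, in medium with GDNF, GFRA1 and FGF2, and the study describes the 48 h of control culture as free of growth factors, with albumin in place of FGF9; the labels do not state this. The labels give passages 9 to 12 and the study's single-cell methods passage 12. The cultures, per those methods, came from the testes of neonatal C57 LacZ pups, with cells from 3 mice pooled into 1 library for each treatment. There is therefore no replicate and no test. All intervals are exact 95% intervals that cover counting error only, and neither the cells nor the genes are replicates of the culture.

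GDNF signals through the receptor RET and its co-receptor GFRA1, and FGFs signal through FGF receptors to the MAPK pathway, which raises Etv4, Etv5 and the feedback phosphatase Dusp6. Both ligands maintain SSC in culture. Cells that leave the stem cell state pass through a progenitor state marked by Sox3, Nanos3 and Neurog3 and then express Sohlh1 and the receptor Kit. The comparison asks whether control cells that hold Nefm transcripts already resembled FGF9-treated cells.

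Depth was equal by construction, with a median of 15535 UMIs in Nefm-positive cells and 15537 in reference cells, and no pair differed by more than 1.20-fold. The median number of genes was 4791 and 4724, and the median mitochondrial share 9.07% and 9.43%. The matrices shared 11 barcodes, none of which was a Nefm-positive control cell. The germ cell genes Ddx4 (430 against 443 CPM) and Dazl (1699 against 1727 CPM) and Zbtb16 (168 against 165 CPM), which encodes PLZF of undifferentiated spermatogonia, stood at like levels in both groups, and the 13 measured of 14 germ cell regulators had a median log2 ratio of 0.03.

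Most Nefm-positive control cells held few Nefm transcripts. There were 3548 cells with 0, 367 with 1, 110 with 2, 84 with 3 to 5, 38 with 6 to 11 and 10 with 12 or more, the highest count being 27. Cells just inside the threshold (1 UMI) and just outside it (0 UMIs) thus differ by a single molecule. In FGF9-treated cells, 262 held 12 or more and the highest count was 82. Nefm was spread unevenly over control cells, with a variance of 2.07 times its mean when each cell was thinned to 5000 UMIs, against 1.29 for Ret, 1.25 for Sox3 and 3.08 for the cycling gene Mki67. As a background, Nefm stood at 8.39 CPM in the 1124 control barcodes outside the gene and mitochondrial limits and at 2.89 in the 31 feeder-like control cells, where 2 cells (6.45%) had a UMI at a median depth of 20517. The average over all 4157 control cells was 19.7.

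**Figure D1:**
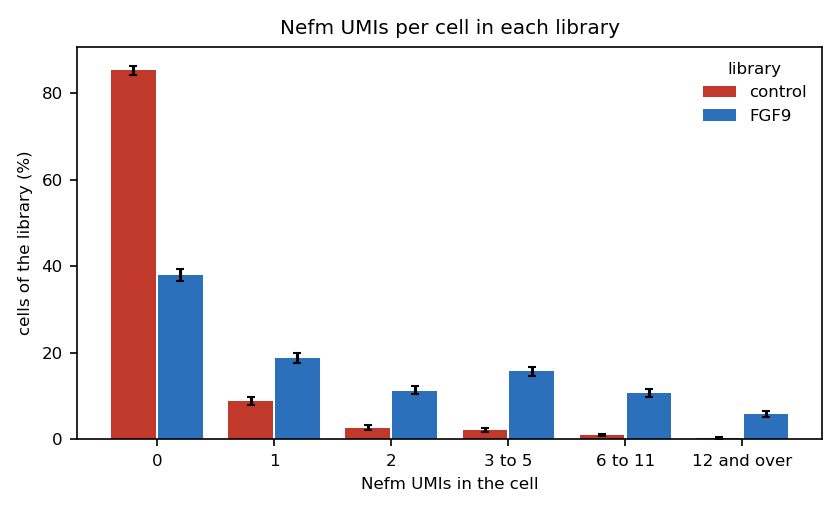
Share of cells (%) by the number of Nefm UMIs in the cell, in the control (red) and FGF9 (blue) libraries; error bars are exact binomial 95% intervals. Of the 609 Nefm-positive control cells, 367 held 1 UMI, whereas the FGF9 library had 262 cells with 12 or more.

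Ret, Gfra1 and most measured genes of the GDNF-induced and the FGF and MAPK lists were higher in Nefm-positive cells than in the reference. Among 6835 genes with at least 20 CPM in either group, 112 (1.64%) had a log2 ratio of at least 0.5 and 12 (0.176%) one of at most -0.5, with a median of 0.01 and 98 in 100 genes between -0.37 and 0.60. Across the 13651 genes with at least 20 UMIs in both groups together, a set that reaches lower and noisier genes, 8.29% lay past the fold upwards, 3.64% downwards, and 54.8% above 0. The shares of 8.29% and 3.64% are the background for the lists that follow.

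The SSC markers were those the study used on these same libraries, so the list is not independent of them. All 6 were above 0, 5 of 6 lay past the fold and the median log2 ratio was 0.94. Ret, the signalling receptor for GDNF, was at 57.0 CPM (52.7 to 61.6) in Nefm-positive cells, at 30.7 (27.5 to 34.1) in the reference and at 104 (102 to 107) in FGF9-treated cells. The log2 ratio to the reference was 0.89 (0.70 to 1.09), so the control cells with Nefm lay between the other groups. Gfra1, the co-receptor, was at 32.6, 13.9 and 58.6 CPM in the same order, a log2 ratio of 1.22 (0.95 to 1.50) and the 4th highest of the 6835 genes. Etv5, a transcription factor that GDNF and FGF raise in SSC, was low in control culture, with 54 UMIs in Nefm-positive cells (4.83 CPM) against 15 in the reference (1.35 CPM), and stood at 29.5 CPM in FGF9-treated cells. Its log2 ratio was 1.84 (0.99 to 2.77). Among the rest, Esrp1, a splicing regulator of epithelial cells, had a ratio of 0.66 (0.39 to 0.94), the surface protein Tspan8 0.99 (0.11 to 1.93), and Id4, an inhibitor of DNA binding found in SSC, 0.31 (0.02 to 0.61).

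Targets of FGF and MAPK signalling followed the same order of levels. All 14 measured genes of 20 were above 0, 8 lay past the fold and the median log2 ratio was 0.55. Dusp6, which dephosphorylates ERK, was at 11.8 CPM in Nefm-positive cells, 4.23 in the reference and 52.2 in FGF9-treated cells, with a ratio to the reference of 1.48 (0.99 to 1.99). Etv4 rested on 37 against 7 UMIs, a ratio of 2.39 (1.21 to 3.81). The immediate early gene Fos had a ratio of 0.52 (0.31 to 0.72), Ier3, another early response gene, 0.58 (0.41 to 0.76), and cyclin D1 (Ccnd1) 0.71 (0.44 to 0.99). The inhibitor Spred1 was nearer to the reference at 0.43 (0.20 to 0.65). Of the GDNF-induced genes, 7 of 8 measured were above 0 and 5 lay past the fold, with a median of 0.82. None of those 5 reached 20 CPM in either group. The 10 genes of the list summed to 158 against 153 CPM (0.04, -0.05 to 0.14). Lhx1, a homeobox factor, had a ratio of 0.85 (0.42 to 1.28), while Pou3f1, a POU factor of the same list, was at 122 against 131 CPM (-0.10, -0.21 to 0.01). Receptor genes had no common direction. Of 8 measured, 3 lay past the fold upwards (Ret, Gfra1 and Fgfr3, the last on 14 UMIs) and 2 downwards (Fgfr2 on 11 and Gfra3 on 58 UMIs in Nefm-positive cells). Fgfr1 was at 60.1 against 66.6 CPM (-0.15, -0.30 to 0.00), and the median of the list was 0.07.

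**Figure D2:**
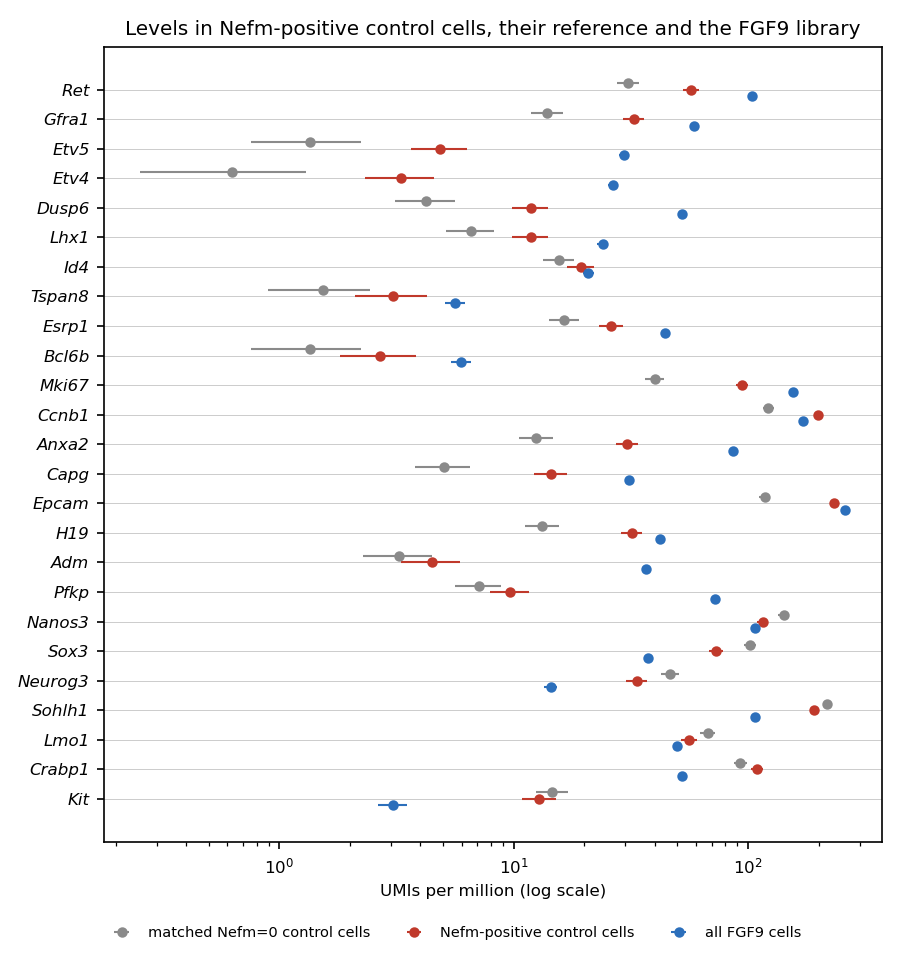
Levels (CPM, log scale) in matched Nefm=0 control cells (grey), Nefm-positive control cells (red) and all FGF9-treated cells (blue), with exact Poisson 95% intervals. Ret, Gfra1, Etv5 and Dusp6 lie in the order grey, red, blue, whereas Adm, Pfkp and Kit in Nefm-positive cells lie close to the grey points and far from the blue ones.

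Adm and Pfkp, which with Nefm were set as markers of the growth factor response, stood far below their levels in the FGF9 library, and their ratios to the reference changed with the cells chosen. Adm, the precursor of the peptide adrenomedullin, had 50 UMIs in Nefm-positive cells and 36 in the reference, or 4.47 and 3.24 CPM, against 36.6 CPM in FGF9-treated cells. The ratio to the reference was 0.47 (-0.18 to 1.13), within counting error of 0 in this matching, and FGF9-treated cells stood above the Nefm-positive cells (log2 ratio 3.03). Pfkp, a phosphofructokinase of glycolysis, was at 9.66 and 7.11 CPM, with 72.2 CPM under FGF9; its ratio to the reference was 0.44 (0.01 to 0.88). Adm was clear of counting error when cells were also matched on the cell cycle (0.96, 0.24 to 1.72), against all Nefm=0 cells (0.87, 0.38 to 1.35) and in cells with at least 2 Nefm UMIs (1.48, 0.40 to 2.69). Pfkp was at 0.41 (-0.02 to 0.85), 0.46 (0.14 to 0.77) and 0.72 (0.11 to 1.35) under the same settings. In cells with exactly 1 Nefm UMI, the ratio was -0.35 (-1.22 to 0.51) for Adm and -0.06 for Pfkp, and among cells under the median share of S and G2/M transcripts it was -0.24 and -0.26, all within counting error of 0. An Adm or Pfkp transcript was found in 118 of 609 Nefm-positive cells (19.4%) and 84 reference cells (13.8%), and Ret stood at 53.5 CPM in those 118 cells and at 58.0 in the other 491. Thinned to 5000 UMIs, 2.47% of Nefm-positive cells (1.39 to 4.04%) held an Adm UMI and 0.822% (0.268 to 1.91%) of the reference; unthinned, the shares were 7.06% and 4.93%. The 31 feeder-like control cells had Adm in 38.7% and Pfkp in 48.4% of cells without thinning, and in 9.68% (2.04 to 25.8%) and 16.1% (5.45 to 33.7%) with it.

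Kit and the other genes of the differentiating state were little lower, or not lower, in Nefm-positive control cells. Kit was at 12.9 CPM against 14.6 in the reference, a ratio of -0.18 (-0.51 to 0.16) on 144 and 162 UMIs, and at 3.04 in FGF9-treated cells, which stood below Nefm-positive cells (log2 ratio -2.08). The KIT antibody tag, the protein readout of the same cells, had a median of 438 counts (quartiles 362 and 604) in Nefm-positive cells, 450 (374 and 631) in the reference and 309 (269 and 366) in FGF9-treated cells. The tag median was also 439 in control barcodes outside the gene and mitochondrial limits, which held a median of 2194 UMIs. In FGF9 barcodes outside those limits it was 313. The tag difference between the libraries was thus also present in barcodes outside the cells compared, and its source was not tested. Sohlh1, a transcription factor of differentiating spermatogonia, had a ratio of -0.18 (-0.26 to -0.09) and Lmo1, a LIM domain protein, -0.27 (-0.43 to -0.12). Crabp1, which binds retinoic acid in the cytoplasm, was higher in Nefm-positive cells, at 109 against 92.9 CPM, while FGF9-treated cells held 52.4. Crabp1 thus lay on the side away from the FGF9 library, although its ratio of 0.23 was 0.01 once cells were also matched on the cell cycle. None of the 4 differentiating markers lay past the fold, and their median was -0.18.

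Sox3, Neurog3 and Nanos3, genes of the progenitor state, were lower in Nefm-positive cells by less than the fold. Sox3 stood at 72.9 CPM in Nefm-positive cells, 102 in the reference and 37.3 in FGF9-treated cells, with a ratio of -0.49 (-0.62 to -0.35), the 17th lowest of the 6835 genes. Neurog3, a transcription factor of progenitors, had 33.6, 46.4 and 14.4 CPM and a ratio of -0.47 (-0.66 to -0.27). Nanos3, an RNA-binding protein, had a ratio of -0.29 (-0.40 to -0.19), whereas Upp1 (-0.04) and Galnt12 (0.05) were near 0. Lhx1 is counted among both the progenitor markers and the GDNF-induced genes, and it was the marker of 5 past the fold. The median of the 5 was -0.04. In a further list of 10 progenitor and differentiation genes, the median was -0.02 and the abundant ubiquitin hydrolase gene Uchl1 had a ratio of -0.19 (-0.23 to -0.16).

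Cell cycle genes were higher in Nefm-positive cells. All 18 G2/M genes were above 0 and 11 lay past the fold, with a median log2 ratio of 0.62, and all 18 S phase genes were above 0 with a median of 0.21, but 2 of 18 lay past the fold, near the background share. Mki67, a marker of cycling cells, was at 94.6 CPM against 40.1 in the reference, and at 156 CPM under FGF9. Its ratio of 1.24 (1.08 to 1.40) was the 3rd highest of the genes tested. The mitotic genes Nusap1 (1.00), Ccnb2 (0.92) and Plk1 (0.86) were also past the fold, as was the replication clamp factor Pclaf at 1.26 (0.84 to 1.70). Cdkn1a, an inhibitor of the cycle and a p53 target, was higher as well, at 30.4 against 20.7 CPM (0.56). The summed share of S and G2/M genes in a cell had a median of 0.324% in Nefm-positive cells and 0.302% in the reference.

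The reference was then matched on this share as well as on total UMIs. The share sums the S phase and G2/M genes themselves, Mki67 and Ccnb1 among them. That their ratios shrank was thus set by the matching and is no result. The ratios of Ret, Gfra1 and the FGF and MAPK targets as a list did not shrink. Mki67 went to 0.00 (-0.13 to 0.12) and Ccnb1 from 0.71 to 0.16 (0.07 to 0.25). The G2/M median went to 0.12, with 16 of 18 genes above 0 and 0 past the fold, and the S phase median to -0.01. Ret stayed at 0.93 (0.73 to 1.13) and Gfra1 at 1.24 (0.96 to 1.53), and Dusp6 was at 1.51. The SSC marker median was 1.04 and the FGF and MAPK median 0.60. The GDNF-induced list went from 0.82 to 0.33, with 3 of 8 genes past the fold, Lhx1 from 0.85 to 0.53, Etv4 from 2.39 to 1.47 and Etv5 from 1.84 to 1.55. Genes past the fold fell from 112 to 67 upwards and from 12 to 8 downwards. Among cells under the median cycle share, 251 Nefm-positive cells against 251, the SSC marker median was 1.22 and the FGF and MAPK median 0.80. The G2/M median was -0.04 there, in cells chosen on those same genes.

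**Figure D3:**
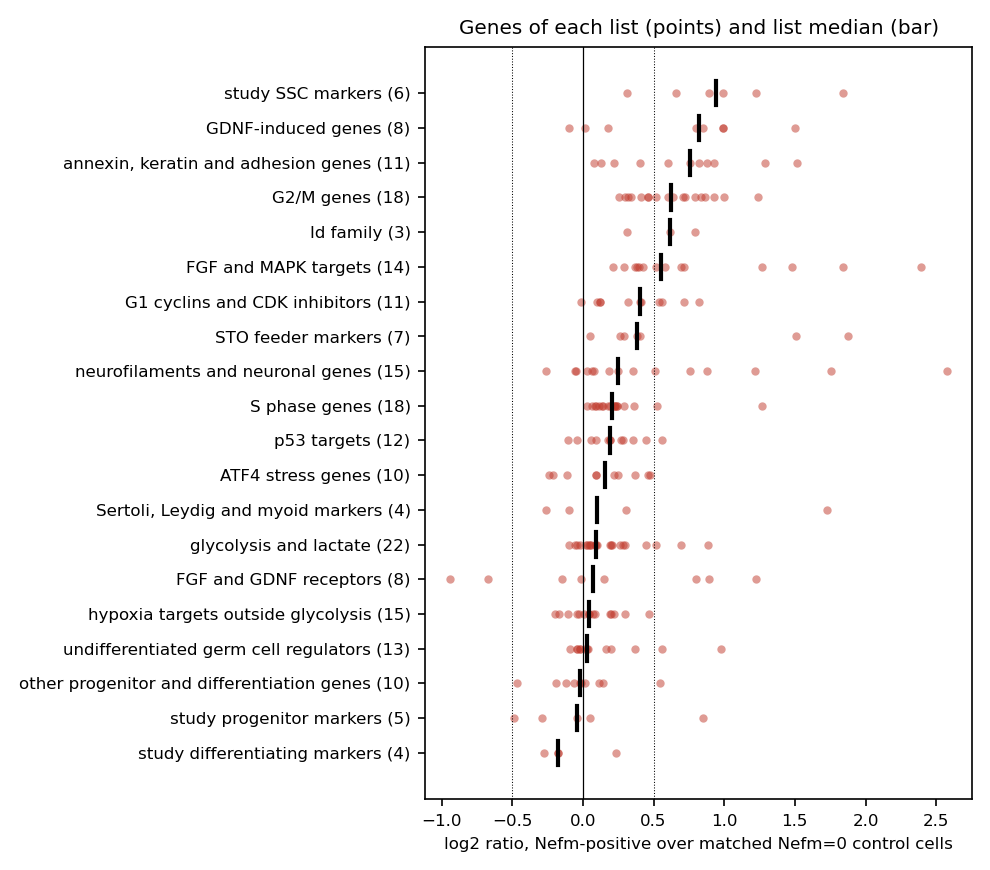
Log2 ratio of Nefm-positive over matched Nefm=0 control cells for the genes of each list with at least 20 UMIs (points; number in brackets) and the list median (black bar); dotted lines mark the fold of 0.5. SSC markers, with a median of 0.94, lie farthest to the right and the differentiating markers, with -0.18, farthest to the left.

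Genes outside these pathways that led the comparison included surface, cytoskeletal and imprinted genes. Anxa2, a calcium-dependent membrane-binding protein, had the highest ratio of the 6835 genes, 1.29 (1.00 to 1.58), at 30.5 CPM against 12.5 and 86.5 in FGF9-treated cells. H19, an imprinted noncoding RNA, followed at 1.27 (0.99 to 1.56). All 31 feeder-like control cells held a UMI of Anxa2. Its ratio was 1.06 (0.79 to 1.34) when cells were also matched on the cell cycle. Among cells under the median cycle share, the ratio of Anxa2 was 0.45 (-0.07 to 0.99), within counting error of 0. The adhesion protein Epcam was at 233 against 118 CPM, a ratio of 0.98 (0.88 to 1.08), and it lay near the 260 of FGF9-treated cells. Its ratio was 0.65 (0.56 to 0.74) when cells were also matched on the cell cycle, and 0.95 (0.77 to 1.12) among cells under the median cycle share. Crabp2, which carries retinoic acid to the nucleus, was at 118 CPM, with a ratio of 1.00 (0.86 to 1.13), again near the 122 of the FGF9 library. The other genes among the 12 highest were Akr1b8, an aldo-keto reductase, Zfp467, a zinc finger protein, Upf3b, a factor of nonsense-mediated decay, Slc9a3r1, a scaffold of membrane proteins, and Plekhh3, with ratios from 0.98 to 1.15. Capg, an actin-capping protein, was lower in abundance and had a ratio of 1.52 (1.07 to 1.98), and the autophagy receptor Optn one of 1.54 (1.01 to 2.10). Of 11 measured annexin, keratin and adhesion genes, all were above 0, 7 lay past the fold and the median was 0.76. The median was 0.57 when cells were also matched on the cell cycle. Among cells under the median cycle share it was 0.39, with 3 of 10 genes past the fold.

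The lowest ratios were smaller in size. Epb41l4a (-0.71), Dpysl3, a cytoskeletal regulator of axons (-0.70), Tcp11l1 (-0.65) and the mitochondrial protein gene Fundc2 (-0.64) led, and Tyk2, Znhit2, Fxyd5, B3galt6, Sfxn1, Sirt6, Pou4f1 and Adcy10 lay between -0.57 and -0.50. Of these, Dpysl3 stood at 12.9 CPM in Nefm-positive cells, 20.9 in the reference and 2.27 in FGF9-treated cells.

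Of the more abundant neuronal genes, 1 of 4 was clear of counting error. Map1b, a microtubule-associated protein, was at 37.9 against 31.9 CPM (0.25, 0.04 to 0.46). The other neurofilament and intermediate filament genes Nefh (-0.06), Ina (0.06) and Nes (0.03) had ratios within counting error of 0, and the neuronal genes Dcx, Gap43 and Scg2 had no UMI in Nefm-positive cells. Of 15 measured genes, 6 lay past the fold, all at low levels, with a median of 0.25, which was 0.02 after matching on the cycle. Nefl, the light chain gene, was outside the rule for named genes and was picked after its value was seen: it had 30 UMIs in Nefm-positive cells, 2.68 CPM against 0.45 CPM, a ratio of 2.58 (1.20 to 4.30), and 5.29 CPM in FGF9-treated cells.

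Metabolic and stress lists had medians closer to 0. Of 22 measured glycolysis genes, 3 lay past the fold and the median was 0.09, led among genes of at least 20 CPM by the glucose transporter Slc2a3 at 0.52 (0.29 to 0.74) and with Aldoa, an aldolase, at 0.29 (0.19 to 0.38). In the FGF9 library Aldoa was at 361 CPM, against 187 in Nefm-positive control cells and 154 in the reference. Hypoxia targets outside glycolysis had a median of 0.04 with 0 of 15 past the fold, p53 targets 0.19 with 1 of 12, and ATF4 stress genes 0.16 with 0 of 10, among them Phgdh of serine synthesis at 0.46 (0.38 to 0.54). Id1, a BMP and GDNF responsive inhibitor of differentiation, had a ratio of 0.62 (0.33 to 0.90), and the 3 measured Id genes had a median of 0.62.

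Markers of other cells were low, but those of feeder cells were somewhat higher in Nefm-positive cells. The 18 STO feeder markers summed to 199 CPM against 156 in the reference. Of the 7 measured, all were above 0 and 2 lay past the fold; Cav1 and Lum were at 0 in Nefm-positive cells. Col1a1 (0.40), Lgals1 (0.29) and Fn1 (0.26) were the named ones, and Vim, picked after its value was seen, was at 8.59 against 2.34 CPM. No transcript of Vim or S100a6 was found in 479 of 609 Nefm-positive and 520 of 609 reference cells. With both groups limited to cells at 0 for these genes, Ret was at 0.72 (0.49 to 0.95), Gfra1 at 1.28, Anxa2 at 0.98 and the SSC marker median at 1.06. Sertoli, Leydig and myoid markers summed to 19.7 against 16.8 CPM, with 1 of 4 measured past the fold (Sox9) and Gata4, Insl3, Hsd3b1, Cyp17a1 and Cnn1 at 0; macrophage markers summed to 3.22 against 2.79, with 1 of 2 measured past the fold (Cd68) and Lyz2, Adgre1, Tyrobp and C1qa at 0.

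Levels of several genes, in CPM, followed the number of Nefm transcripts in a cell. Ret stood at 30.7 CPM in the reference, 47.9 in cells with 1 Nefm UMI, 60.1 with 2, 68.8 with 3 to 5 and 89.4 (71.9 to 110) with 6 or more. Gfra1 went from 13.9 to 22.3, 33.3, 41.2 and 82.5 over the same classes, and Dusp6 from 4.23 to 7.59, 11.9, 17.1 and 29.8. In the 48 cells with 6 or more Nefm UMIs, Gfra1 had an interval of 65.7 to 102, above the 58.6 of the whole FGF9 library. Dusp6 (20.1 to 42.5) was below its 52.2 there, and the interval of Ret held the 104 of that library. That library includes cells without Nefm. Its 1720 Nefm-positive cells used here were matched in depth to its cells without Nefm, not to the 48 cells. Their median was 11903 against 17284 UMIs, and they held Nefm at 308 against 441 CPM. In those 1720 cells, Gfra1 was at 71.4, within its interval in the 48 cells, while Ret (120) and Dusp6 (59.5) lay above theirs. Sox3 went the other way, from 102 to 81.5, 70.0, 60.0 and 45.7, and Nanos3 from 142 to 58.6 (44.6 to 75.6), below the 107 of FGF9-treated cells. Mki67 went from 40.1 to 220 (192 to 250), above the 156 of the FGF9 library. It was found in 26 of the 48 cells of the highest class, and the intervals leave out the spread between cells. Kit had no such order, at 14.6, 13.9, 9.44, 17.1 and 5.96 CPM, and Adm reached 8.94 (4.09 to 17.0) in the highest class, below the 36.6 of FGF9-treated cells. The classes hold 367, 110, 84 and 48 cells and rise in median depth from 15012 to 17284 UMIs. Against a reference matched in depth to each class, the log2 ratios of Mki67 were 0.60, 2.34, 2.22 and 2.12, with no rise past 2 Nefm UMIs. Those of Dusp6 were 0.53, 1.42, 2.85 and 2.32. Ret (0.56, 1.01, 1.37 and 2.32) and Gfra1 (0.57, 1.54, 1.80 and 2.92) were higher in each further class.

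**Figure D4:**
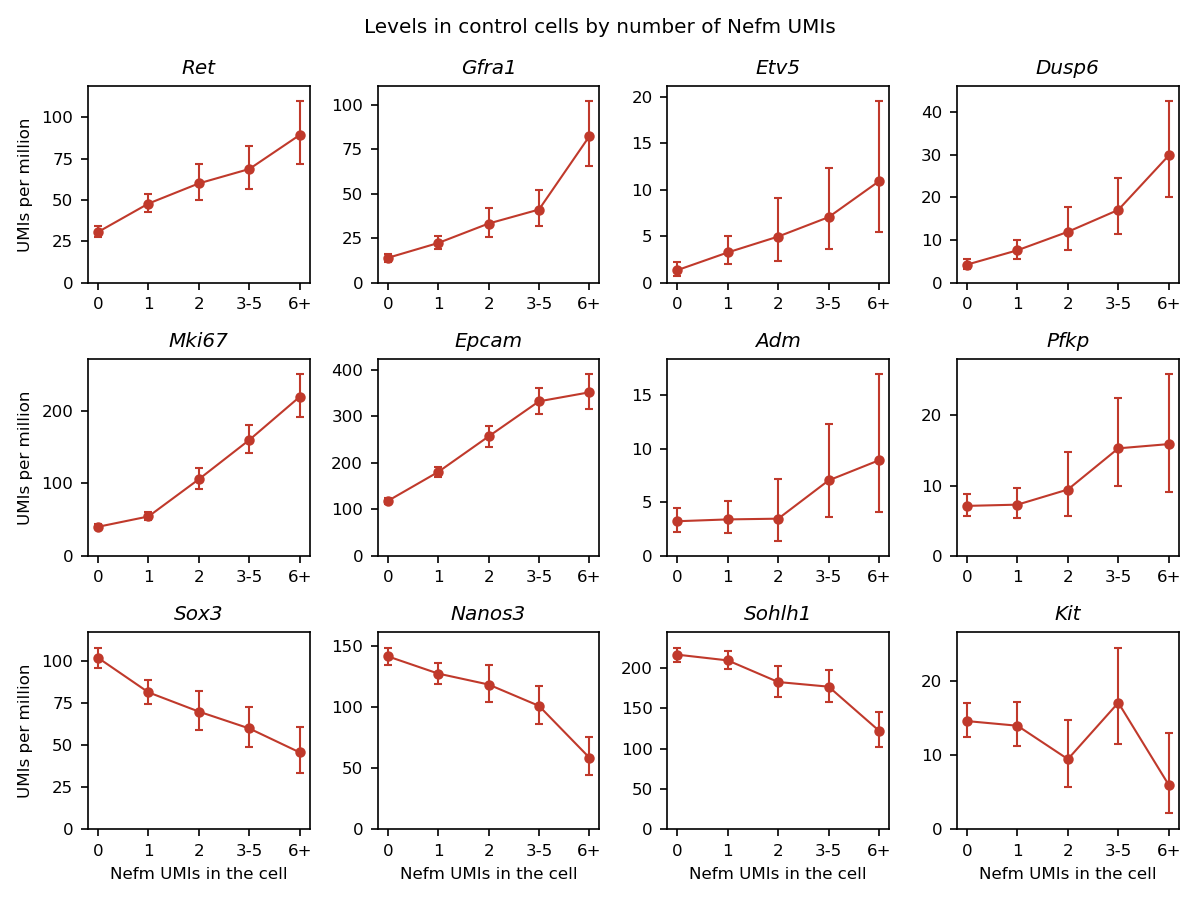
Levels (CPM, each axis from 0) of 12 genes in control cells by the number of Nefm UMIs, with exact Poisson 95% intervals; the class 0 is the matched reference. Ret, Gfra1, Etv5, Dusp6, Mki67 and Epcam are higher in each further class, Sox3, Nanos3 and Sohlh1 lower, and Kit has no order.

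Genes taken from the FGF9 contrast were compared side by side. That contrast was computed against the 2939 control cells that were neither Nefm-positive nor reference, so it shares the control library, though none of its cells, with the ratios above, and the values are no independent support for each other. None of the 2939 cells holds Nefm, whereas 62.1% of FGF9-treated cells do. The contrast is thus in part one of Nefm itself, and how large that part is was not tested. The 2939 cells were also shallower than the reference (median 14575 against 15537 UMIs), with Mki67 at 28.6 against 40.1 CPM. It placed 5.30% of 6906 genes past the fold of 0.5 upwards and as large a share, 5.30%, downwards. The 111 genes at least 2-fold higher in FGF9-treated cells, Nefm left out, had a median log2 ratio of 1.40 there and of 0.66 in Nefm-positive over reference cells (range 0.05 to 2.39), beside 0.01 over all genes. The 58 genes at least 2-fold lower had medians of -1.20 and -0.24 (range -0.71 to 0.24). Among the 12 lowest in FGF9-treated cells, Tubb2b, a beta tubulin, and Timp2, a metalloprotease inhibitor, had ratios of 0.24 (-0.04 to 0.51) and 0.04 (-0.17 to 0.26) in Nefm-positive control cells, and Enpep, an aminopeptidase, -0.44 (-0.66 to -0.22).

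The same contrast was then taken within the FGF9 library, where 1720 cells without a Nefm UMI were each matched to a Nefm-positive cell, with pairs up to 2.58-fold apart in depth. The median share of S and G2/M genes was 0.329% in the cells with Nefm and 0.282% in those without. This contrast was not matched on that share. Of 6732 genes, 115 (1.71%) were past the fold upwards and 28 (0.416%) downwards. Gfra1 was at 71.4 CPM in cells with Nefm there and 43.9 in those without (0.70, 0.58 to 0.82), and Ret at 120 and 94.6 (0.34, 0.25 to 0.42). Mki67 had a ratio of 1.07 and Anxa2 of 0.80. Adm was clear of counting error at 42.7 against 22.7 CPM (0.91, 0.75 to 1.07), as was Kit at 2.05 against 3.75 (-0.87, -1.43 to -0.33). Sohlh1 was at 77.6 against 144 CPM (-0.90), beside -0.18 in control cells. Whether these ratios differ between the libraries was not tested. Across the 6512 genes measured in both libraries, the ratios had a Pearson correlation of 0.57 and a Spearman correlation of 0.48, across genes that are not independent replicates. Of these 6512 genes, a smaller set than the 6732 above, 105 were past the fold upwards in control cells and 73 in the FGF9 library. Those past it in both numbered 48, or 45.7% of the 105 and 65.8% of the 73. Over all genes tested in each contrast, 1.64% in control cells and 1.71% in the FGF9 library lay past the fold upwards. Downwards, 3 of the 6512 genes were past the fold in control cells, 27 in the FGF9 library and 1 in both. Neither contrast was matched on the cell cycle here, and the part of cycle genes in the overlap was not tested.

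**Figure D5:**
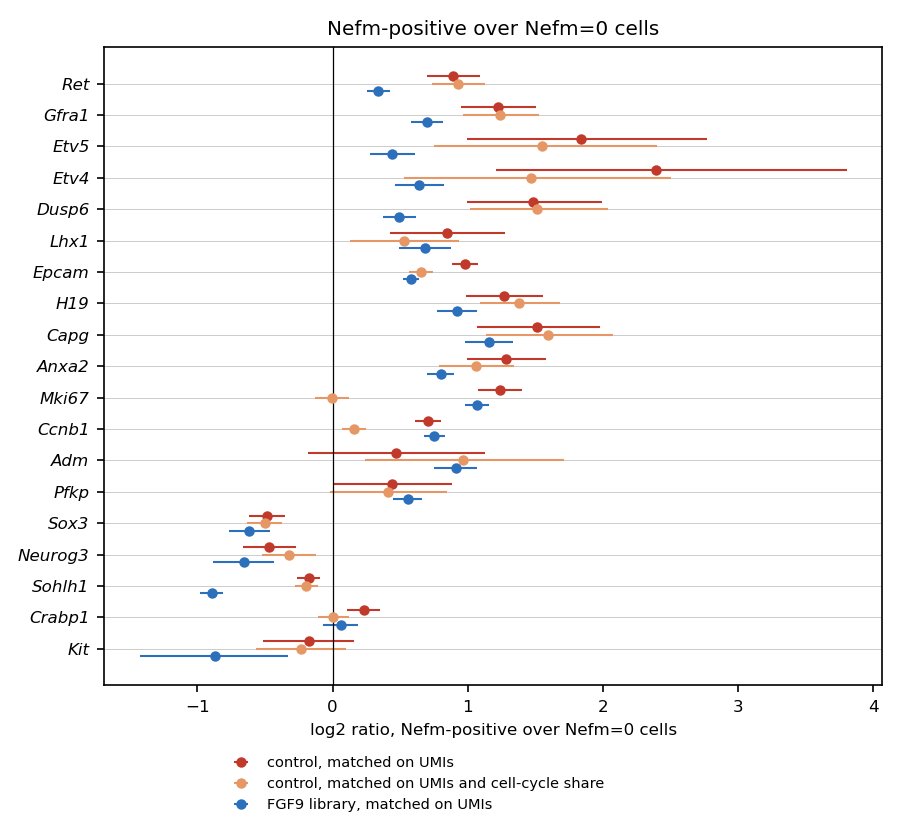
Log2 ratio of Nefm-positive over Nefm=0 cells with exact 95% counting intervals: control cells matched on UMIs (red), control cells matched also on the share of S and G2/M transcripts (orange) and the FGF9 library matched on UMIs (blue). Ret and Gfra1 keep ratios of 0.93 and 1.24 under the cell cycle matching. Mki67 and Ccnb1 are among the genes whose share was matched, and Mki67 goes to 0.00.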

How the data were processed

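Droplet 3' single-cell libraries of 1 control and 1 FGF9-treated culture were used. The deposited values are raw UMI counts; the authors ran Cell Ranger (3.1.0 per the file headers) with the mm10 genome, and the submitters' processing notes also name Seurat 3.1. Each matrix holds 32285 genes and a KIT antibody tag, and the deposited barcodes (5312 control, 5959 FGF9) precede the authors' own cell filter. Gene positions come from GENCODE vM21.

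Control cells with a Nefm UMI were matched 1 to 1 to Nefm=0 cells on log total UMIs, nearest first from the deepest cell, without reuse. UMIs were summed over 609 cells a group (11174727 and 11117965 UMIs) and divided by the total (CPM). Log2 ratios have exact conditional binomial intervals, levels exact Poisson and shares exact Clopper-Pearson intervals at 95%; cells were not replicates, so no test was run. Lists use genes with at least 20 UMIs in both groups together. No doublet caller was run. Intervals were checked on simulated counts.

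Named genes were Nefm, Adm, Pfkp, Ret, Kit, the study's SSC, progenitor and differentiating markers, the 12 highest and lowest ratios in each contrast with at least 20 CPM (no predicted, clone or mitochondrial genes), and up to 4 genes per list with the largest ratios at that level. Bcl6b, Ccnb1, Cd68, Fgfr2, Fgfr3, Gfra3, Nefl, Sox9 and Vim are outside this rule and were picked after their values were seen; Ddx4, Dazl and Zbtb16 serve as a check of cell identity. The members and lists were chosen with earlier results of these data known. Python 3.11.15, numpy 2.4.6, scipy 1.17.1, pandas 2.3.3 and matplotlib 3.10.9 were used.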

Additional observations from a re-analysis of the deposited data

Results flagged for a closer look

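Nefm transcripts were also found outside the cells compared. In the 1124 control barcodes beyond the gene or mitochondrial limits, 26 Nefm UMIs were counted, in 19 barcodes (1.69%), or 8.39 CPM against 19.7 in all control cells within the limits. Their part in the count of 609 Nefm-positive cells was not tested.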

How the results depend on the processing

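The differences of Ret, Gfra1, Etv5, Etv4 and Dusp6 kept their direction under all 14 other settings tried for them. In cells with exactly 1 Nefm UMI, however, Etv4 (1.58, -0.14 to 3.67) and Dusp6 (0.53, -0.14 to 1.20) were within counting error of 0. Gfra1 was at 0.57 (0.19 to 0.95) and Etv5 at 1.39 (0.16 to 2.77) in those cells. Cells with at least 2 Nefm UMIs (5.82% of control cells) gave log2 ratios of 1.48 for Adm and 1.39 for Ret. The median was 1.02 for the genes highest in FGF9-treated cells. Of 6907 genes, 343 lay past the fold upwards and 194 downwards. Cells thinned to 5000 UMIs (6.79% Nefm-positive) gave 1.17 for Adm (-0.67 to 3.32, within counting error of 0) and a median of 0.75. Of 6989 genes, 494 lay past the fold upwards and 343 downwards. These settings compared 242 and 281 cells a group and hold fewer UMIs, so counting error is larger. Its part in the higher gene counts was not tested. Matching on the cell cycle gave 67 of 6835 genes upwards, a median of 0.47 and -0.0033 for Mki67, which is among the genes matched on. At most 10% mitochondrial transcripts (16.6% Nefm-positive) gave 31 of 6880 genes downwards and a median of 0.70. Genes of at least 5 CPM gave 417 and 119 of 10497 genes, and no filter on low values gave 2642 and 1709 of 18006. More and lower genes are then counted.

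Further settings were chosen after seeing the data. Cells with exactly 1 Nefm UMI gave -0.35 for Adm, -0.062 for Pfkp, 0.56 for Ret, 41 of 6863 genes upwards and a median of 0.36. Without the cells of 6 or more Nefm UMIs, the median was 0.57. Cells under the median S and G2/M share gave -0.24 for Adm, -0.26 for Pfkp, -0.10 for Ccnb1 and -0.0055 for Crabp1. Ccnb1 is among the genes of that share. This setting gave 75 of 6846 genes downwards and a median of 0.60. The cause of these shifts was not tested beyond the choice of cells itself. At 50 and 36 UMIs, depth limits what can be said of Adm. No paired analysis was possible because each treatment has 1 library, and for the same reason leaving out a replicate was not an option.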
